A study of Mus musculus with 22 samples.

Results

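The regions described here are 1405 stretches of the mouse genome where the vitamin D receptor (VDR) was called in undifferentiated MC3T3-E1 cells with hormone, together with its dimer partner RXR and with either C/EBPβ or RUNX2, but not both. MC3T3-E1 is a mouse pre-osteoblast line that makes mineralized matrix in osteogenic culture. The regions were chosen by the presence or absence of calls in 6 of the 22 deposited lists. A member was a VDR region with calcitriol that overlapped no VDR region under vehicle and no VDR region of differentiated cells with calcitriol. It overlapped an RXR region with calcitriol and a region of exactly 1 of the C/EBPβ and RUNX2 lists of undifferentiated cells with calcitriol, each by at least 1 bp. Of 7000 VDR regions with calcitriol, 6214 were not called under vehicle, 5772 of these were not called in differentiated cells, and 3426 of these had RXR. The 1405 members were 20.1% of all 7000 regions and 41.0% of the 3426. They divided into 348 with C/EBPβ only (24.8%; exact 95% interval 22.5 to 27.1) and 1057 with RUNX2 only (75.2%; 72.9 to 77.5). The remaining regions with RXR were 1373 with both partners and 648 with RXR alone.

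Chromatin immunoprecipitation sequencing (ChIP-seq) was carried out on undifferentiated cells and on cells grown for 15 days with glycerol-2-phosphate and ascorbic acid. Before fixation, cells of both states received ethanol vehicle or 100 nM 1,25(OH)2D3 for 3 h. This compound, called calcitriol here, is the hormonal form of vitamin D. VDR and RXR were represented under vehicle and calcitriol, and C/EBPβ, RUNX2, H4K5ac, H3K9ac, H3K4me1, H3K4me3 and H3K36me3 with calcitriol only. All groups came from 1 cell line at passages 5 to 12, and the differentiated cultures were also homogenized and spun through sucrose to remove matrix, so state and preparation cannot be told apart. Each group was 1 list of regions with no read counts, so no difference could be set against replicates and the depth behind a call is unknown. A region absent from a list was not called there, which does not show that the factor was absent. Intervals and p-values below cover the counting of regions only.

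VDR is a nuclear receptor that, with its ligand, binds DNA as a heterodimer with RXR. The element known for this dimer is a DR3, a direct repeat of a 6-letter hexamer with 3 letters between the copies. RUNX2 is the runt-family factor required for osteoblast formation. C/EBPβ is a leucine-zipper factor active in osteoblast and adipocyte precursors. Both factors bind enhancers of the osteoblast lineage, each at a short DNA motif of its own.

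The sequences below show what such regions look like. They are printed from the plus strand of mm9, 5′ to 3′, with capitals for a DR3 with at most 1 mismatch and for an exact motif of the called partner. All but the last lie within 100 kb of a start of a gene from 12 lists of bone, vitamin D, signalling and other cell type genes, with the fewest DR3 mismatches. The last, near Mbnl1, was added after the values were seen, because it holds an exact DR3.
C/EBPβ only, 45.0 kb upstream of Sox9, which encodes a cartilage transcription factor, intergenic, with an exact DR3 on the minus strand, chr11:112598409-112598609: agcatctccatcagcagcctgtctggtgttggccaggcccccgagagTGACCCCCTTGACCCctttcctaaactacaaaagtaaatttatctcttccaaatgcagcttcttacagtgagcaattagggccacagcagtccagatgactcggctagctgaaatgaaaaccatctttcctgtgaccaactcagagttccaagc
C/EBPβ only, 263 bp upstream of Cyp24a1, which encodes the enzyme that inactivates calcitriol, in the promoter, chr2:170322808-170323008: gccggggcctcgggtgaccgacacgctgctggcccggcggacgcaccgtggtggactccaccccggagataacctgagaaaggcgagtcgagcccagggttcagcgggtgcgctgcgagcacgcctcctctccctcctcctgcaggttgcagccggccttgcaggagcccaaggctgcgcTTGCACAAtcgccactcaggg
C/EBPβ only, intron of Tnfrsf19, which encodes a tumour necrosis factor family receptor, chr14:61661283-61661483: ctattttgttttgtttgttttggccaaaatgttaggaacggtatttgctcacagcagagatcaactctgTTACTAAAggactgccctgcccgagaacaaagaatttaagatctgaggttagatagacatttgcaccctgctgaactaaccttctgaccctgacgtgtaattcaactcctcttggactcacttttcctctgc
C/EBPβ only, intron of Lrp5, which encodes a Wnt co-receptor, chr19:3666756-3666956: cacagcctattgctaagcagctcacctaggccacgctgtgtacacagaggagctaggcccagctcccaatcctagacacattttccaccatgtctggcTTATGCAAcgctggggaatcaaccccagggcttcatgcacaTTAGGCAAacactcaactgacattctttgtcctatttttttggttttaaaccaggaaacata
RUNX2 only, intron of Smad3, which encodes a TGF-beta signal transducer, chr9:63512995-63513195: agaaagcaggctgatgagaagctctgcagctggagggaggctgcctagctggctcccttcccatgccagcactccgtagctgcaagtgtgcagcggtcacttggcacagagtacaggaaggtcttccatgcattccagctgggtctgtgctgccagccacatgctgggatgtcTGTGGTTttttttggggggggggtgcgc
RUNX2 only, intron of Alpl, which encodes tissue-nonspecific alkaline phosphatase, chr4:137348777-137348977: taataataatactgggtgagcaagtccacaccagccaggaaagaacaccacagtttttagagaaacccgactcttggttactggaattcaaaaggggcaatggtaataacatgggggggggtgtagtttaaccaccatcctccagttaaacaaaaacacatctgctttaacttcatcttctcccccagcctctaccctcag
RUNX2 only, 6005 bp downstream of the Wnt10b start and intergenic, chr15:98598818-98599018: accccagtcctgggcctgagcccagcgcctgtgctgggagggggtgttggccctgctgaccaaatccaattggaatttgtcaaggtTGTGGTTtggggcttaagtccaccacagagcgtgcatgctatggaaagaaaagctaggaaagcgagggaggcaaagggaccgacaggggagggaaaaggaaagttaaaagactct
RUNX2 only, promoter of Mbnl1, which encodes a splicing regulator, with an exact DR3 on the minus strand, chr3:60305541-60305741: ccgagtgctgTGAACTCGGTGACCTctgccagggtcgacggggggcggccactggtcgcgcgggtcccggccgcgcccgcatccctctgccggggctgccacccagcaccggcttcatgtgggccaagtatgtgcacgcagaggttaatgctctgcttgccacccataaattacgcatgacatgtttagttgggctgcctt
Matches without any mismatch to the DR3 were rare: 2 of the 348 C/EBPβ-only regions, among them that of Sox9, and 1 of the 1057 RUNX2-only regions, that of Mbnl1. The Smad3 and Wnt10b regions hold a TGTGGTT, and the Alpl region holds neither its partner's motif nor a DR3.

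The kinds differed in the motif of the partner that had been called, which the choice of regions did not use. Motifs were searched on both strands in 200 bp about the centre of each region. The RUNX motif, searched without mismatch as TGNGGTN where each N was C or T, was in 416 of 1057 RUNX2-only regions (39.4%; 36.4 to 42.4) and in 29 of 348 C/EBPβ-only regions (8.33%; 5.65 to 11.7). Over all 7000 VDR regions its share was 26.9%. The odds ratio, here and below the odds in C/EBPβ-only over those in RUNX2-only regions, was 0.140 (95% interval 0.0939 to 0.209; two-sided Fisher's exact test, adjusted p = 1.27e-30 over 7 motifs). The C/EBP motif, searched as TTGCNNAA and equally with A in place of its G, as TTACNNAA, showed the opposite difference, with 104 of 348 (29.9%; 25.1 to 35.0) against 98 of 1057 (9.27%; 7.59 to 11.2) and an odds ratio of 4.17 (3.06 to 5.68; adjusted p = 2.11e-18 by the same exact test). Its share over all VDR regions was 19.4%. Windows of the same size placed 2 kb to either side gave the level in neighbouring sequence. The RUNX motif was in 8.09% of the windows beside RUNX2-only regions and 10.8% of those beside C/EBPβ-only regions, and the C/EBP motif in 14.5% and 16.2%. The motif of the partner that was not called was lower at the regions than beside them in both kinds, although that difference was not tested. For C/EBP at RUNX2-only regions the interval of 7.59 to 11.2 lay below the 14.5% beside them. For RUNX at C/EBPβ-only regions the interval of 5.65 to 11.7 held the 10.8% beside them. Regions where that partner was called had been left out by the rule. Most members held no match to the pair searched: neither a DR3 nor the motif of the called partner was present in 217 C/EBPβ-only regions (62.4%) and 607 RUNX2-only regions (57.4%).

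Elements of nuclear receptors were more frequent with C/EBPβ. A DR3 with at most 1 mismatch was in 38 C/EBPβ-only regions (10.9%; 7.84 to 14.7) and 52 RUNX2-only regions (4.92%; 3.70 to 6.40), with an odds ratio of 2.37 (1.53 to 3.67; adjusted p = 4.72e-04, Fisher's exact test). Both shares were below the 14.8% over all 7000 VDR regions and above the flanking windows, at 1.29% and 1.09%. DR4, the same repeat with 4 letters between the copies and known as an element of other RXR dimers, was in 25 (7.18%; 4.70 to 10.4) and 28 (2.65%; 1.77 to 3.81) regions, with an odds ratio of 2.84 (1.64 to 4.95; adjusted p = 5.10e-04, exact test). The share of DR4 over all VDR regions was 4.44%, and the flanking windows held it in 0.287% and 1.75%. DR3 and DR4 were counted from largely separate regions, since 1 region of each kind held both. At no mismatch the DR3 difference did not pass the test and the DR4 difference changed direction, with the values given under the dependence on processing. The difference in DR3 was also not called within members that had RXR under vehicle or within members that did not. DR1 was near its background of 2.97%, at 3.45% and 3.22%, and its odds ratio of 1.07 had a 95% interval of 0.550 to 2.10.

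The motifs of 2 further families known at enhancers did not separate the kinds. AP-1, searched as TGANTCA, was in 16.7% of C/EBPβ-only and 14.4% of RUNX2-only regions against 14.7% of all VDR regions, with an odds ratio of 1.19 (0.856 to 1.66). TEAD, searched as GGAATG, was in 22.7% and 25.3% against 22.2%, with an odds ratio of 0.869 (0.652 to 1.16). Beside the regions both motifs were less frequent, at 5.89% and 6.48% for AP-1 and at 11.6% and 10.5% for TEAD.

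**Figure D1:**
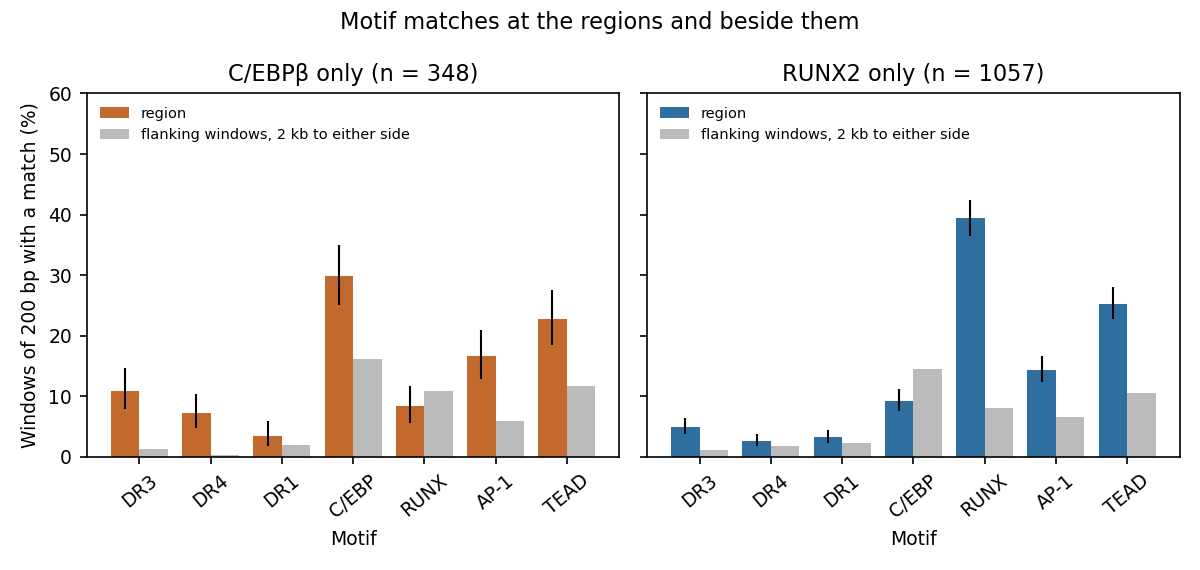
Share of 200 bp windows with each motif (vertical axis, percent) at C/EBPβ-only regions (left) and RUNX2-only regions (right), with exact 95% intervals. Grey bars are windows 2 kb to either side. RUNX stands at 39.4% in RUNX2-only and 8.33% in C/EBPβ-only regions, and C/EBP at 9.27% and 29.9%.

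Distances within the regions are given next. For each motif a single match per region was used, the first found with the fewest mismatches, which need not be the nearest to the centre. Its median distance from the region's centre was 34.5 bp for DR3 and 40.5 bp for C/EBP in C/EBPβ-only regions. In RUNX2-only regions it was 52.5 bp for DR3 and 41.0 bp for RUNX. Of the DR3 matches, 65.8% in C/EBPβ-only and 48.1% in RUNX2-only regions lay within 50 bp of the centre. The RXR centre was at a median of 34.0 bp from the VDR centre in C/EBPβ-only and 35.0 bp in RUNX2-only regions. The partner's centre was at 61.5 bp (quartiles 31.0 and 101) for C/EBPβ and 41.0 bp (21.0 and 79.0) for RUNX2. It lay within 50 bp at 146 C/EBPβ-only regions (42.0%) and 611 RUNX2-only regions (57.8%). Since every overlap was chosen on these lists, these distances are a description, with no test.

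A few members were near the limit set by the 1 bp overlap. The called partner overlapped by 20 bp or less at 7 C/EBPβ-only and 12 RUNX2-only regions. A region of the absent partner ended within 20 bp of the VDR region, without touching it, at 9 and 27 members. Its centre lay within 1 kb at 60 C/EBPβ-only (17.2%) and 215 RUNX2-only regions (20.3%), so absence of the other partner here means absence at the region and not in its neighbourhood. Just outside the rule, 58 of the 1373 regions with both partners had one of them by an overlap of 20 bp or less.

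RXR before hormone was the second large difference. In undifferentiated cells under vehicle, RXR was called at 860 of 1057 RUNX2-only regions (81.4%; 78.9 to 83.7) and at 200 of 348 C/EBPβ-only regions (57.5%; 52.1 to 62.7), with an odds ratio of 0.310 (0.238 to 0.403; adjusted p = 3.02e-17 over 15 lists, Fisher's exact test). Both exceeded the 49.3% of all VDR regions. RXR was thus called without hormone at most regions of either kind, while VDR, by the rule, was not. In differentiated cells the same order was seen. RXR under vehicle was called at 114 C/EBPβ-only (32.8%; 27.8 to 38.0) and 501 RUNX2-only regions (47.4%; 44.4 to 50.5), with an odds ratio of 0.541 (0.419 to 0.697; adjusted p = 5.84e-06, exact test), against 32.4% of all VDR regions. RXR with calcitriol was called at 221 (63.5%; 58.2 to 68.6) and 756 (71.5%; 68.7 to 74.2), with an odds ratio of 0.693 (0.536 to 0.895; adjusted p = 0.0176, exact test), against 54.3%. These backgrounds did not require RXR either. Regions with RXR alone and with both partners had RXR under vehicle at 20.5% and 57.6%, and RXR with calcitriol at 45.2% and 81.9%. VDR under vehicle was called in differentiated cells at 0 of the 348 and 0 of the 1057 members. That list held 274 regions. The rule had already removed regions with VDR under vehicle in undifferentiated cells or with calcitriol in differentiated cells, so little overlap was possible.

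The difference in RXR after differentiation was smaller among members with the same RXR call before hormone. Among members with RXR under vehicle in undifferentiated cells, RXR with calcitriol was called in differentiated cells at 147 of 200 C/EBPβ-only regions (73.5%; 66.8 to 79.5) and 663 of 860 RUNX2-only regions (77.1%; 74.1 to 79.9). Among members without it, the call was made at 74 of 148 C/EBPβ-only (50.0%; 41.7 to 58.3) and 93 of 197 RUNX2-only regions (47.2%; 40.1 to 54.4). The kinds did not differ by the test within either stratum, with odds ratios of 0.824 (0.580 to 1.17) and 1.12 (0.730 to 1.71). The same held for RXR under vehicle in differentiated cells, with 0.686 (0.504 to 0.935; adjusted p = 0.0852, Fisher's exact test) and 1.07 (0.588 to 1.93). Its shares were 45.5% and 54.9% in the first stratum and 15.5% and 14.7% in the second. In addition, the RXR calcitriol difference between kinds was not called when members with a DR3 were left out. These divisions were added after the data had been seen.

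Members with a DR3 had RXR under vehicle less often than the others. In C/EBPβ-only regions RXR under vehicle was called at 10 of 38 with a DR3 (26.3%; 13.4 to 43.1) and 190 of 310 without (61.3%; 55.6 to 66.7). In RUNX2-only regions the counts were 28 of 52 (53.8%; 39.5 to 67.8) and 832 of 1005 (82.8%; 80.3 to 85.1). The intervals of members with and without a DR3 did not overlap in either kind. In the other direction, the DR3 share was 5.00% with and 18.9% without RXR under vehicle in C/EBPβ-only regions, and 3.26% and 12.2% in RUNX2-only regions. RXR in differentiated cells with calcitriol followed the same order, at 12 of 38 (31.6%; 17.5 to 48.7) against 209 of 310 (67.4%; 61.9 to 72.6) in C/EBPβ-only regions, and at 30 of 52 (57.7%; 43.2 to 71.3) against 726 of 1005 (72.2%; 69.4 to 75.0) in RUNX2-only regions. These shares were looked at after the other results and are a description.

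In differentiated cells each partner was called more often at the kind that had it before, though many members lost its call. C/EBPβ was called with calcitriol at 210 of 348 C/EBPβ-only regions (60.3%; 55.0 to 65.5) and 91 of 1057 RUNX2-only regions (8.61%; 6.99 to 10.5), with an odds ratio of 16.2 (11.9 to 21.9; adjusted p = 1.81e-81, Fisher's exact test), against 32.1% of all VDR regions. RUNX2 was called at 49 (14.1%; 10.6 to 18.2) and 591 (55.9%; 52.9 to 58.9), with an odds ratio of 0.129 (0.0933 to 0.179; adjusted p = 6.14e-45, exact test), against 34.8%. The lists of differentiated cells were not used to sort members by partner, but they are of the same 2 factors in the same cell line. Of all C/EBPβ regions of undifferentiated cells 64.7% were called again, and of all RUNX2 regions 43.1%. These 2 tests are therefore not independent of the sorting. A loss of the VDR call was thus accompanied by a partner call in most members of both kinds.

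Retention of the called partner did not differ between kinds by the test, at 60.3% for C/EBPβ and 55.9% for RUNX2 (odds ratio 1.20, 0.938 to 1.54; Fisher's exact test p = 0.152). The whole lists give a background. Of all 17950 C/EBPβ regions of undifferentiated cells, 11610 (64.7%) were called again, and of all 12012 RUNX2 regions, 5183 (43.1%). RUNX2-only members were therefore above their list's share, whereas the interval of the C/EBPβ-only members held theirs. Of the 1373 regions with both partners, C/EBPβ was called again at 68.9% and RUNX2 at 66.9%. A RUNX2 share above that of its list was thus not particular to RUNX2-only members. The whole lists contain the members, so the shares are set side by side without a test.

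Where RXR stayed, the partner stayed more often. Among C/EBPβ-only regions with RXR in differentiated cells with calcitriol, C/EBPβ was called at 159 of 221 (71.9%; 65.5 to 77.8), and among those without RXR at 51 of 127 (40.2%; 31.6 to 49.2), an odds ratio of 3.82 (2.41 to 6.06; adjusted p = 8.65e-09, Fisher's exact test). Among RUNX2-only regions RUNX2 was called at 506 of 756 with RXR (66.9%; 63.5 to 70.3) and 85 of 301 without (28.2%; 23.2 to 33.7), an odds ratio of 5.14 (3.84 to 6.90; adjusted p = 3.13e-30, exact test). The gap was thus present in both kinds, and whether it differed between them was not tested. The same comparison over all VDR regions or over the whole partner lists is not given here. The gap is therefore not shown to be particular to these members. This comparison was chosen after the data were seen. The RXR call under vehicle in undifferentiated cells gave a different picture for the kinds. With it, 126 of 200 C/EBPβ-only regions (63.0%; 55.9 to 69.7) and 529 of 860 RUNX2-only regions (61.5%; 58.2 to 64.8) kept their partner. Without it, 84 of 148 (56.8%; 48.4 to 64.9) and 62 of 197 (31.5%; 25.1 to 38.5) did, an odds ratio of 2.86 between kinds (1.84 to 4.45; Fisher's exact test p = 3.38e-06). Where RXR had not been called before hormone, RUNX2 was thus kept less often than C/EBPβ. The whole lists had the same order, at 43.1% for RUNX2 and 64.7% for C/EBPβ, so this order is not particular to these members.

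**Figure D2:**
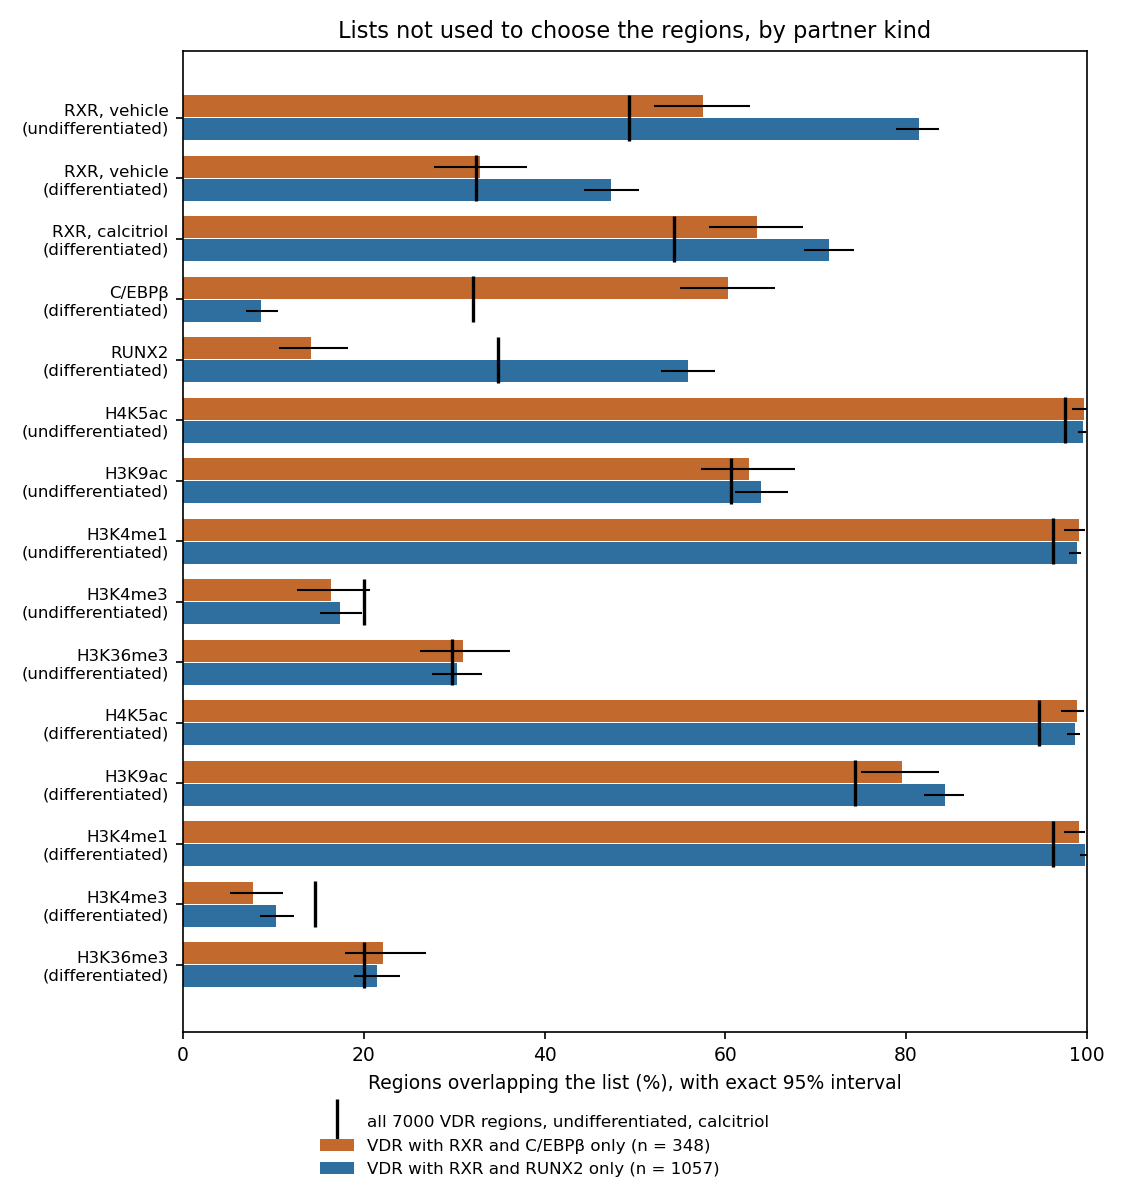
Share of C/EBPβ-only (orange) and RUNX2-only (blue) regions that overlap each list not used to choose them (horizontal axis, percent), with exact 95% intervals. Black ticks are all 7000 VDR regions. RXR under vehicle stands at 57.5% and 81.4%, and the intervals of the kinds overlap for each of the 10 histone lists.

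The combinations of factors called with calcitriol in differentiated cells show how these shares join. Among C/EBPβ-only regions, 117 (33.6%; 28.7 to 38.9) had RXR with C/EBPβ, 42 (12.1%; 8.84 to 16.0) had RXR with both partners, 58 (16.7%; 12.9 to 21.0) had RXR alone, and 76 (21.8%; 17.6 to 26.6) had none of the 3. Among RUNX2-only regions, 444 (42.0%; 39.0 to 45.0) had RXR with RUNX2, 62 (5.87%; 4.53 to 7.46) had RXR with both, 231 (21.9%; 19.4 to 24.5) had RXR alone, and 211 (20.0%; 17.6 to 22.5) had none. The most frequent outcome in each kind was thus the trio of undifferentiated cells without the VDR call. Exchange of one partner for the other was rare, at 4 C/EBPβ-only (1.15%; 0.314 to 2.92) and 24 RUNX2-only regions (2.27%; 1.46 to 3.36). Addition of the other partner to the first was seen at 45 (12.9%; 9.59 to 16.9) and 67 (6.34%; 4.95 to 7.98). Shares of these combinations over all VDR regions are not given here, so none is shown to be a trait of the members.

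**Figure D3:**
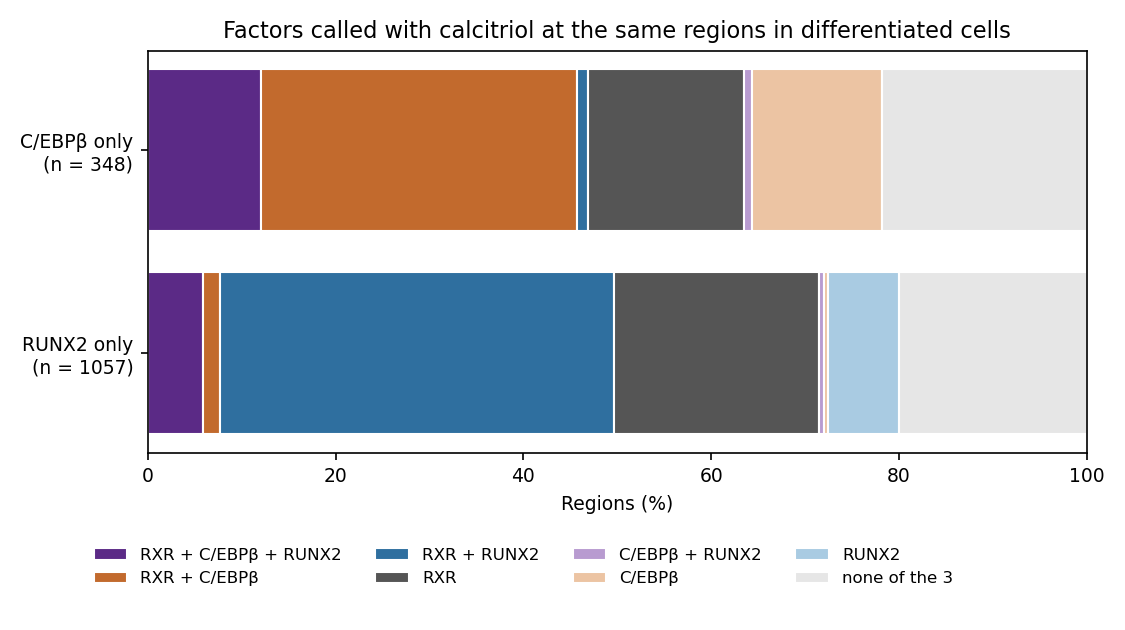
Share of C/EBPβ-only and RUNX2-only regions (horizontal axis, percent) with each combination of RXR, C/EBPβ and RUNX2 called in differentiated cells with calcitriol. RXR with C/EBPβ makes up 33.6% of the upper bar, RXR with RUNX2 42.0% of the lower bar, and none of the 3 makes up 21.8% and 20.0%.

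None of the 10 histone lists passed the test between the kinds over all members, and 1 had an unadjusted p under 0.05. Among members without RXR under vehicle in undifferentiated cells, a division added after the data were seen, H3K4me3 in differentiated cells was called, with an odds ratio of 0.221 (0.0744 to 0.656; adjusted p = 0.0155, Fisher's exact test). H4K5ac, an acetylation found at active regulatory regions, overlapped 99.7% of C/EBPβ-only and 99.6% of RUNX2-only regions in undifferentiated cells and 98.9% and 98.7% in differentiated cells. H3K4me1, the methylation typical of enhancers, overlapped 99.1% and 98.9%, and after differentiation 99.1% and 99.8%. All 7000 VDR regions had H4K5ac at 97.6% and 94.7% and H3K4me1 at 96.3% and 96.3% in the 2 states, so these shares are near the background. Nearly every member thus overlapped both marks in both states, as did nearly all VDR regions. In undifferentiated cells the listed regions were up to 469159 bp wide for H4K5ac and 196428 bp for H3K4me1, and an overlap of 1 bp was enough. The 1 C/EBPβ-only region without H4K5ac in undifferentiated cells was the promoter of Cyp24a1, singled out after the values were seen, and it overlapped no histone list in either state.

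H3K9ac, an acetylation of active promoters and enhancers, overlapped 62.6% of C/EBPβ-only and 64.0% of RUNX2-only regions in undifferentiated cells, against 60.6% of all VDR regions. In differentiated cells the shares were 79.6% (75.0 to 83.7) and 84.3% (82.0 to 86.4) against 74.3%, with an odds ratio of 0.727 (0.534 to 0.990; Fisher's exact test p = 0.0475, adjusted p = 0.119). H3K9ac was called only in differentiated cells at 63 C/EBPβ-only and 224 RUNX2-only regions, and only in undifferentiated cells at 4 and 10. The H3K9ac list itself was longer in differentiated cells, with 22868 regions against 17189. H3K4me3, the promoter mark, went the other way: it overlapped 16.4% and 17.4% before (background 20.0%) and 7.76% and 10.3% after differentiation (background 14.6%). It was called only in undifferentiated cells at 32 C/EBPβ-only and 90 RUNX2-only regions and only in differentiated cells at 2 and 15, although its list held 8994 regions after and 6983 before differentiation. H3K36me3, a mark of transcribed gene bodies, overlapped 31.0% and 30.3% before (background 29.8%) and 22.1% and 21.4% after (background 20.0%).

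Members lay mostly away from gene starts. A promoter, within 1 kb of a start, held 27 C/EBPβ-only regions (7.76%; 5.18 to 11.1) and 131 RUNX2-only regions (12.4%; 10.5 to 14.5), against 15.3% of all VDR regions, with an odds ratio of 0.595 (0.386 to 0.917; Fisher's exact test p = 0.0186, adjusted p = 0.0744 over 4 positions). Introns held 35.3% and 36.5% (background 33.5%), exons 1.15% and 1.80% (background 1.40%), and intergenic sequence 55.7% and 49.3% (background 49.7%). None of the 4 positions passed the test, and promoters and intergenic sequence had an unadjusted p under 0.05. The median distance to the nearest start was 34.9 kb for C/EBPβ-only regions (quartiles 10.0 and 93.9) and 23.5 kb for RUNX2-only regions (5.97 and 71.7). The median GC content was 47.5% and 50.0%, respectively. Another member lay within 10 kb of 40 C/EBPβ-only (11.5%) and 135 RUNX2-only regions (12.8%), so most had no other member that near. One of the regions with both partners lay within 10 kb of 45 (12.9%) and 121 (11.4%). Counts of the remaining VDR regions nearby are not given here.

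In their shares of RXR under vehicle and of DR3, the 2 kinds stood between the regions with RXR alone and those with both partners. RXR under vehicle in undifferentiated cells was called at 206 of 648 regions with RXR alone (31.8%; 28.2 to 35.5) and 1209 of 1373 with both partners (88.1%; 86.2 to 89.7). A DR3 was in 182 (28.1%; 24.7 to 31.7) and 48 (3.50%; 2.59 to 4.61). The DR3 interval of RUNX2-only regions, 3.70 to 6.40, overlapped that of regions with both partners, and the kinds were not tested singly against them. A DR3 without mismatch was in 40 regions with RXR alone, 2 C/EBPβ-only, 1 RUNX2-only and 6 with both partners, so this order did not hold there. The 1405 members as 1 set differed from the regions with both partners in 10 of 15 lists and 4 of 7 motifs, and from those with RXR alone in 13 of 15 and 4 of 7 (Fisher's exact tests, adjusted within each family). These counts include the partner lists of differentiated cells and the partner motifs, which are not independent of the partner calls that define the sets. RUNX2-only regions were 75.2% of the members, so the pooled shares lean to that kind. For DR3 the odds ratio of members over regions with RXR alone was 0.175 (0.133 to 0.230; adjusted p = 2.23e-37, exact test), and over regions with both partners 1.89 (1.32 to 2.70; adjusted p = 0.00104, exact test). For RXR under vehicle they were 6.59 (5.37 to 8.09; adjusted p = 3.65e-78, exact test) and 0.417 (0.340 to 0.511; adjusted p = 2.57e-17, exact test). H3K4me3 in differentiated cells was at 17.4% with RXR alone, 9.68% of members and 4.01% with both. Without promoter regions neither difference passed the test, at 0.718 against RXR alone (adjusted p = 0.349, exact test) and 1.88 against both (adjusted p = 0.0546, exact test). Within the members the C/EBPβ-only kind was the nearer to regions with RXR alone on DR3 and on RXR under vehicle.

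**Figure D4:**
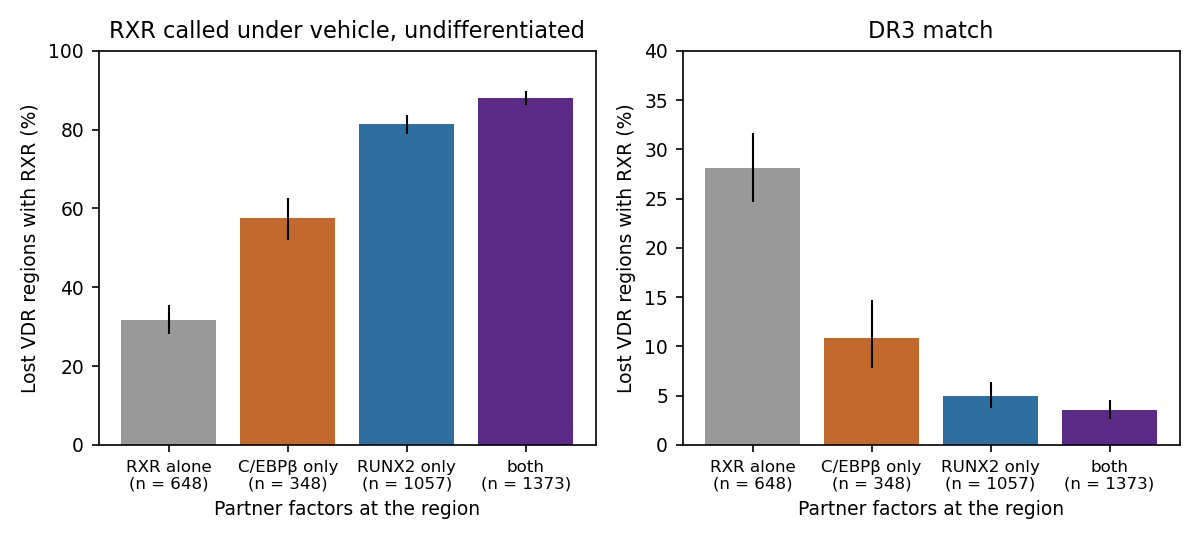
Share of regions (vertical axes, percent, with exact 95% intervals) with RXR called under vehicle in undifferentiated cells (left) and with a DR3 match (right), for the 4 partner sets of lost VDR regions with RXR. From RXR alone through C/EBPβ only and RUNX2 only to both, RXR under vehicle stands at 31.8%, 57.5%, 81.4% and 88.1% and DR3 at 28.1%, 10.9%, 4.92% and 3.50%.

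Genes were tied to members by distance alone, within 100 kb of any annotated start, which does not show regulation. Of 22208 protein-coding genes, 660 (2.97%) had a C/EBPβ-only member, 2397 (10.8%) a RUNX2-only member and 217 both. Beside these shares stand 12 lists of bone, signalling and other cell type genes. Of 22 genes of Wnt signalling, a pathway that drives bone formation, 10 (45.5%) had a RUNX2-only member and 3 (13.6%) a C/EBPβ-only member, and the latter 3 were among the 10. Of 22 vitamin D response genes, 5 (22.7%) and 3 (13.6%) had one. Of 27 genes of bone matrix and mineralization the counts were 6 (22.2%) and 2 (7.41%), of 24 BMP and TGF-beta genes 4 (16.7%) and 1 (4.17%), and of 17 osteoblast transcription factors 4 (23.5%) and 2 (11.8%). At 50 kb, 1 of these 17 genes (5.88%) had a RUNX2-only member, against 6.02% of all genes. Of 14 genes of osteoclast coupling and cytokines, 2 (14.3%) had a RUNX2-only member and 0 a C/EBPβ-only member. The 3 chondrocyte, 3 adipocyte, 2 blood, 2 housekeeping, 1 muscle and 1 osteocyte genes with a RUNX2-only member were out of 13, 13, 9, 12, 10 and 9 genes. A C/EBPβ-only member was near 2 of the chondrocyte genes (15.4%), 1 of the osteocyte genes (11.1%) and 0 of the adipocyte, blood, housekeeping and muscle genes. Lists of genes from other cell types thus reached shares like those of the bone lists, with 23.1% for the adipocyte genes. At 50 kb the adipocyte genes stood at 15.4%, the bone matrix genes at 22.2% and the Wnt genes at 40.9%, while the blood genes fell from 2 to 0 and the housekeeping genes from 2 to 1.

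C/EBPβ-only regions near listed genes were single. The Cyp24a1 promoter region at chr2:170322808-170323008 lies inside the annotation of the neighbouring Pfdn4, holds a TTGCACAA, and was called for no further factor list: neither RXR under vehicle nor any factor in differentiated cells was called. Its closest DR3 alignment carried 2 mismatches, 1 more than was counted. A region without a counted DR3, this one included, can still hold a receptor element that departs further from the consensus. The region 3.67 kb upstream of Vdr, the receptor's own gene, at chr15:97744630-97744830, was also within 100 kb of the cartilage collagen gene Col2a1. It kept RXR and C/EBPβ after differentiation and had no RXR under vehicle in either state. The Runx2 intron held a C/EBPβ-only region at chr17:44846898-44847098, 24.6 kb downstream of a start, with RXR under vehicle before and RXR and C/EBPβ after differentiation. The Fosl2 intron region, chr5:32442093-32442293, in a gene for an AP-1 subunit, overlapped every one of the 15 lists. Near Id3, which encodes an inhibitor of helix-loop-helix factors, the region 2.92 kb upstream kept RXR and lost the C/EBPβ call. The Tnfrsf19 region kept both, and the Sox9 region with its exact DR3 kept neither. The Ank intron region, in the gene of a pyrophosphate transporter, kept RXR alone.

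Several listed genes, of bone and of other lists, had more than 1 RUNX2-only region within 100 kb. RUNX2-only members outnumbered C/EBPβ-only members, at 1057 against 348. The share of all genes with more than 1 is not given here, so such groups are not shown to be a trait of bone genes. Csf1, the gene of macrophage colony-stimulating factor, had 3. Col1a1, the gene of the main bone collagen chain, had 3, at 54.1, 7.32 and 2.41 kb upstream, all with RXR in all 3 other RXR lists, and the one at 7.32 kb kept RUNX2. Alpl had 2 intronic regions, at chr4:137300542-137300742 with a RUNX motif and RXR and RUNX2 kept, and the one printed above, which kept neither. Lrp5 had 3 RUNX2-only regions and 1 C/EBPβ-only region in its introns. The C/EBPβ-only region, at chr19:3666756-3666956, had C/EBPβ, RUNX2 and RXR called after differentiation, and 2 of the 3 RUNX2-only regions, 17.3 and 5.13 kb from a start, kept RXR and RUNX2. Tcf7l2, which encodes a nuclear effector of Wnt signals, likewise had 3 and 1, all with RXR kept, and Sfrp2, which encodes a secreted Wnt antagonist, had 1 and 1. Lrp6, the paralogue of Lrp5, had 2, of which the intronic one at chr6:134423335-134423535 held a RUNX and a C/EBP motif and was called for both partners after differentiation. Rxra, the gene of an RXR, had 2 with RXR in every RXR list, and neither kept RUNX2 after differentiation. Pth1r, encoding the parathyroid hormone receptor, had 2 intronic regions, neither of which kept RUNX2. Lif, encoding a cytokine, had 2, both with RUNX2 kept. Pparg, the adipocyte receptor gene, had 2, and the one 44.2 kb upstream kept RXR and RUNX2. The housekeeping gene Actb had 3.

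Over all protein-coding genes, the highest counts came from neighbours that share regions. D5Ertd579e, Ddc, Grb10, Zcchc24, 1700054O19Rik, Cno, Wdr75, Ppif and Gm10397 had 3 C/EBPβ-only members each within 100 kb, and S1pr1, a sphingosine-1-phosphate receptor gene, had 2, the nearest at 64 bp from a start. With RUNX2 only, Sh3bp1, Pdxp and Lgals1 had 5 each, and Gga1, Triobp, Csrp1, Rgs3, Lgals2, Tnni1 and Phlda3 had 4 each. The same region can count for each of these neighbours, so the counts are not independent.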

How the data were processed

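The submitters' processing notes name the tools Bowtie and HOMER and the build mm9, with no version, and no peak threshold is stated in the sources used here. Each of the 22 samples is 1 deposited list of regions, taken to be what the authors' replicates had in common. Factor regions are 201 bp wide with a deposited score of 0. The deposited score of the histone regions has no stated meaning and was used only in 1 alternative. The sample labels give H4K5ac where the protocol text names H3K5Ac, and the labels were followed.

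Regions on chromosomes 1 to 19 and X were joined by an overlap of at least 1 bp, with Python 3.11.15 and scipy 1.17.1. Sequence came from NCBIM37 (mm9) and genes from GENCODE vM1. Shares carry exact Clopper-Pearson 95% intervals. The kinds were compared by Fisher's exact test, two-sided, with odds ratios, Woolf 95% intervals and Benjamini-Hochberg adjustment within 15 lists, 7 motifs and 4 positions, at a threshold of 0.05. Lists used to choose members were not tested. The DR3, DR1 and DR4 elements repeat the nuclear receptor hexamer and allowed 1 mismatch in all. The scripts were tested on simulated data. For each kind, up to 12 listed genes and 10 genes of all were named by most members within 100 kb, ties by the nearest. The members, gene lists and tests were chosen with earlier results of these data known. Cebpd and Spi1 did not match the annotation. Alternatives changed the overlap, distances, windows, mismatches and members used. Some named genes and regions chosen by these rules are not reported here.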

Additional observations from a re-analysis of the deposited data

How the results depend on the processing

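The lists hold no read counts, so depth limits every call to an unknown extent, and no replicate could be left out. No paired analysis was possible because each group is 1 list without replicate numbers. The differences in RXR under vehicle (odds ratios 0.288 to 0.405 over 9 alternatives), in C/EBPβ and RUNX2 after differentiation (11.0 to 27.4 and 0.116 to 0.283 over 11) and in the RUNX and C/EBP motifs (0.101 to 0.182 and 3.04 to 5.87 over 12) kept their direction and call. Divisions by DR3, by RXR under vehicle and by chromosome were added after the data had been seen. The cause of the changes below was not tested. RXR with calcitriol after differentiation (0.693) was no longer called at an overlap of 100 bp (0.740), with no absent partner within 1 kb (0.710), in regions merged from 2 peaks (0.774), without DR3 members (0.795) and with RXR under vehicle (0.824), and changed direction without it (1.12). RXR under vehicle after differentiation (0.541) was not called with RXR under vehicle (0.686) and changed direction without it (1.07). DR3 (2.37) was not called without a mismatch (6.10; 0.552 to 67.5), with RXR under vehicle (1.56) or without it (1.68). DR4 (2.84) changed direction without a mismatch (0.505; 0.0606 to 4.21) and was not called without RXR under vehicle (1.76). The motifs called fell from 4 to 2 without a mismatch and to 2 without RXR under vehicle. Without RXR under vehicle, 1 position in place of 0 was called, namely promoters (0.360; adjusted p = 0.0469, Fisher's exact test), H3K4me3 in differentiated cells was called (0.221), and partner retention differed between kinds (2.86). At 50 kb, 371 genes in place of 660 had a C/EBPβ-only and 1338 in place of 2397 a RUNX2-only member. The position comparison was not run without promoter members.

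A further 27 odds ratios of single lists, motifs or positions crossed 1, of which 1 had been called. In undifferentiated cells H3K9ac gave 1.01 at 100 bp overlap, 1.06 in merged regions, 1.02 without promoters, 1.05 without DR3 members and 1.48 with RXR under vehicle. H3K36me3 there gave 0.979 in merged regions, 0.976 without the lowest 25% of histone regions and 0.953 without RXR under vehicle. H3K4me3 gave 1.06 without promoters and 1.13 with RXR under vehicle. H3K4me1 there gave 0.854 without the lowest 25%, and H4K5ac gave 0.750 without RXR under vehicle. In differentiated cells H3K36me3 gave 0.994 in merged regions and 0.926 without RXR under vehicle, H3K4me1 1.04 and H3K4me3 1.13 without promoters, H3K9ac 1.12 and H3K4me3 1.15 with RXR under vehicle, and H4K5ac 0.986 without chromosomes 13 and 14. DR1 gave 0.928 without promoters, 0.432 without a mismatch, 0.939 without DR3 members and 0.969 without chromosomes 13 and 14. TEAD gave 1.02 with, and introns 1.03 without, RXR under vehicle. Without promoters, members against regions with RXR alone gave 1.03 for H3K4me3 in undifferentiated cells, where the difference had been called, and 0.981 for H3K36me3 in differentiated cells.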

Other observations

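The balance of the kinds was uneven over chromosomes. C/EBPβ-only regions were 23 of the 51 members on chromosome 13 (45.1%; exact 95% interval 31.1 to 59.7) and 18 of the 35 on chromosome 14 (51.4%; 34.0 to 68.6), against 24.8% of all members. The lowest share was on chromosome 12, with 4 of 37 (10.8%; 3.03 to 25.4). The C/EBPβ list of undifferentiated cells held 2.31 times as many regions as the RUNX2 list on chromosome 13 and 2.57 times as many on chromosome 14, against 1.49 times over all chromosomes. On chromosome 12 this ratio was 1.54. It was highest on chromosome X, at 3.27, where 2 of the 8 members were C/EBPβ-only (25.0%; 3.19 to 65.1). These chromosomes were singled out after their values were seen.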
